A study of Homo sapiens with 44 samples.

Results

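The data concern the late hours of a synchronized culture in which a hairpin against MYCN was switched on. IMR5/75 is a human neuroblastoma line with amplified MYCN, and the cells used here carried a tetracycline-inducible short hairpin RNA against MYCN. They were synchronized at G1/S by an 18 h thymidine block, released, and sampled at 11 times up to 22 h, with tetracycline (Tet plus) or without it (Tet minus). The libraries described are the 8 Tet plus libraries collected at 16, 18, 20 and 22 h, of 44 in the series. They were chosen because their titles are of 1 form and because all 4 hours of a replicate carry the same lane number (lane 8 for replicate 1, lane 4 for replicate 2). The late window holds the 4 libraries of 20 and 22 h (2 per hour) and the early window the 4 libraries of 16 and 18 h. Every cell compared, in either window, had been through the same thymidine block and, in the Tet plus arm, carried the induced hairpin. No library of a control hairpin or of tetracycline without the hairpin was analysed here, so effects of the drug cannot be told apart from effects of the hairpin. Tet minus libraries of the same hours (8 libraries) carried other lane numbers (3 and 6) and titles of another form. Arm therefore cannot be told apart from lane or sequencing run in their levels. Only changes within an arm, and the difference between these changes, are compared.

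MYCN encodes a MYC-family transcription factor that pairs with MAX to drive genes of growth, ribosome production and cell division, while MXD proteins and MNT compete for MAX. A released culture moves through S phase, when replication-dependent histones are made, then through G2 and mitosis, when cyclin B, kinesins, condensins and kinetochore proteins peak. Securin, cyclin B and their kin are transcribed late in the cycle, largely through CCAAT boxes and CHR elements in their promoters, and their RNAs drop as daughter cells enter G1. The total of a transcript in a bulk culture is a mean over cells: fewer cells in a phase and less RNA per cell in that phase cannot be told apart.

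The 8 Tet plus libraries held 10.9 M to 19.8 M reads assigned to genes, with 15777 to 16345 genes detected. The noradrenergic markers that define this kind of neuroblastoma were present: HAND2 was at 408 to 620 CPM (the library-scaled count of edgeR), GATA3 at 32.1 to 44.7, and 31 of 38 listed markers reached 1 CPM in all 8 libraries. TH, tyrosine hydroxylase, a defining marker, was near 0, with 5 counts in total over the 8 libraries. The summed level of the noradrenergic list was 3412 to 4386 CPM at 20 and 22 h and 3643 to 4367 CPM at 16 and 18 h. Epithelial markers (0 of 13 at 1 CPM in all libraries, 4 at 0) summed to 2.34 to 4.31 CPM in the late window and 1.87 to 3.70 CPM in the early window. Blood and endothelial markers (1 of 18, 6 at 0) summed to 4.15 to 6.65 CPM in the late window and 4.93 to 5.74 CPM in the early window. Of the mesenchymal and Schwann-like markers, 18 of 30 reached 1 CPM in all 8. The list summed to 1698 to 2405 CPM in the late window and 1777 to 2343 CPM in the early window. PRRX1, a mesenchymal factor, was at 59.4 to 159 CPM, while SOX10, a Schwann cell factor, stayed at or below 0.151 CPM.

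MYCN, the targeted transcript, did not differ detectably between the windows. In Tet plus cells it was at 861, 961, 943 and 1029 CPM at 16, 18, 20 and 22 h in replicate 1 and at 1003, 1041, 1031 and 1227 CPM in replicate 2. The windows overlapped, with a mean of 1058 ± 120 CPM late and 966.3 ± 77.5 CPM early (SD, n = 4 libraries each, log2 fold change 0.13, SE 0.105, adjusted p = 0.537). In Tet minus cells it was at 1351, 1015, 1008 and 1033 CPM in replicate 1 and at 1322, 1097, 1244 and 1179 CPM in replicate 2. At 16 h both Tet plus values lay below both Tet minus values, and pooled over the 4 hours the ranges overlapped. Since arm and lane cannot be told apart here, these levels are no check of the knockdown. The difference between the arms in the change of MYCN was not past the threshold (log2 0.24, adjusted p = 0.46). Of the other measured MYC network genes, MXD4, which encodes a MAX partner that antagonizes MYC proteins, was at 133, 145, 155 and 205 CPM in replicate 1 and at 136, 165, 178 and 232 CPM in replicate 2. Its rise (log2 0.40, adjusted p = 0.00115) was the only 1 past the threshold among the 13 network genes tested, in the hourly model described next. The windows of MXD4 overlapped (155 CPM late in replicate 1, 165 CPM early in replicate 2). In that model 0 network genes were called without the 22 h libraries and 0 without the 16 h libraries. MAX and MNT were not past it (log2 -0.12 with adjusted p = 0.283, and 0.14 with adjusted p = 0.465).

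Late and early windows were compared in 2 models, which differ in what counts as error. The window model fits 1 mean per window and a term for the replicate, so a change between the hours inside a window is counted as spread (5 residual degrees of freedom). It called 3 of 13507 genes, all lower late (percent called 0.0222), with 2377 genes at an unadjusted p under 0.05. The hourly model fits a mean for each hour and a term for the replicate, so the spread is that between replicates alone (3 residual degrees of freedom), and tests the same late minus early difference. It called 966 genes higher (7.15% of those tested) and 1241 lower (9.19%), 2207 in all, against 811 (without the 18 h library of replicate 2) to 2480 with 1 library left out. Its total was below 2207 by over 1.5 times without either 18 h library and without the 16, 20 or 22 h library of replicate 2. The words rose and fell below refer to the hourly model, with Benjamini-Hochberg adjustment over all genes in edgeR's quasi-likelihood test, unless the window model is named. The labels call the 2 libraries of an hour biological replicates without saying more, so p-values measure the spread between these libraries. An SD of a window runs over its 4 libraries, hours and replicates together.

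The 22 h libraries stood apart in base composition. The change of a gene leaned with its GC content (Spearman 0.434 across 12940 genes, a description, since genes share libraries): genes of the lowest GC quintile had a median log2 change of -0.133 and genes of the highest quintile 0.138. The lean between those quintiles, on the log2 scale and relative to the 8-library mean, was 0.376 and 0.455 in the 22 h libraries and -0.252 to 0.031 in the other 6. With a GC and length correction per library, the hourly model called 679 genes higher (5.03%) and 852 lower (6.31%). Without the 22 h libraries, 20 h against 16 and 18 h gave 41 genes higher (0.304%) and 46 lower (0.341%) in the hourly model. Without the 16 h libraries, 20 and 22 h against 18 h gave 156 higher (1.17%) and 351 lower (2.63%). Mitotic genes had a median GC of 46.2%, G2 genes 41.9%, histone genes 57.5% and all tested genes 48.6%. The Tet minus change leaned the other way (Spearman -0.36, median log2 change 0.0741 in the lowest and -0.0905 in the highest quintile). There the 16 h libraries were at 0.575 and 0.318 and the 18 h libraries at -0.400 and -0.225, a swing inside the early window. The 20 h libraries were at 0.128 and -0.00491 and the 22 h libraries at 0.0988 and -0.491. The part of base composition in the results was not tested beyond the corrected values and the values without whole hours, given for the groups where they are printed.

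**Figure D1:**
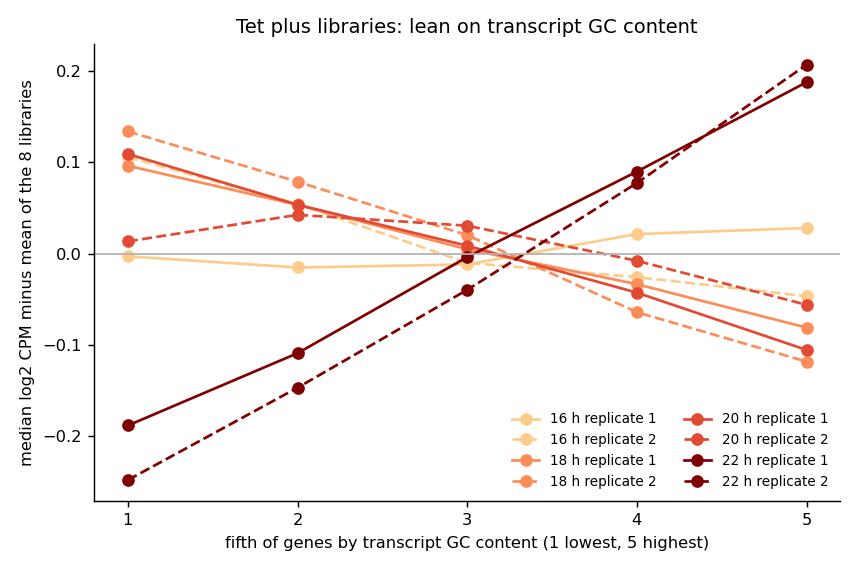
Median log2 CPM of genes minus the mean of the 8 Tet plus libraries (vertical axis) by quintile of transcript GC content (1 lowest, 5 highest), with a line per library. The 22 h libraries go up across the quintiles, by 0.376 and 0.455 in all, while the other 6 change by -0.252 to 0.031.

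The 3 genes called in the window model were NMU, ETV4 and PTTG1. PTTG1 encodes securin, which holds separase inactive until chromosomes separate. It was at 127, 77.7, 50.8 and 37.8 CPM at 16, 18, 20 and 22 h in replicate 1 and at 112, 74.3, 58.6 and 34.5 CPM in replicate 2. All 4 late libraries lay below all 4 early ones, at 45.4 ± 11.3 CPM late and 97.7 ± 25.8 CPM early (SD, n = 4 each; log2 fold change -1.10, SE 0.18, adjusted p = 0.0383 in the window model and 3.73e-07 in the hourly model). NMU encodes the neuropeptide neuromedin U. Its values were 16.0, 11.0, 4.57 and 3.21 CPM in replicate 1 and 14.4, 10.1, 7.01 and 3.69 CPM in replicate 2. Again the windows did not overlap, at 4.62 ± 1.69 CPM late and 12.9 ± 2.82 CPM early (SD, n = 4 each; log2 -1.48, SE 0.211, adjusted p = 0.0197). ETV4, an ETS-family transcription factor of the PEA3 group that responds to growth factor signalling, lay below the expression level set for naming genes and was picked after its values were seen. It was at 9.67, 5.66, 2.47 and 1.74 CPM in replicate 1 and at 16.2, 6.22, 3.91 and 3.42 CPM in replicate 2, with no overlap between windows (log2 -1.73, SE 0.269, adjusted p = 0.0313).

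These window calls did not hold in every fit that left out 1 library. PTTG1 lost its call in 4 of 8 fits that left out 1 library (adjusted p up to 0.165, without either 16 h library or either 22 h library). ETV4 lost its call without the same 4 libraries. NMU lost its call in 3 of 8 (without either 22 h library or the 16 h library of replicate 2). The log2 changes stayed between -1.29 and -0.93 for PTTG1, -2.0 and -1.38 for ETV4 and -1.76 and -1.31 for NMU. With no term for the replicate, all 3 had an adjusted p of 0.352. In the hourly model with GC and length correction, their adjusted p-values were 1.04e-06 for PTTG1, 3.55e-05 for ETV4 and 4.71e-05 for NMU.

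**Figure D2:**
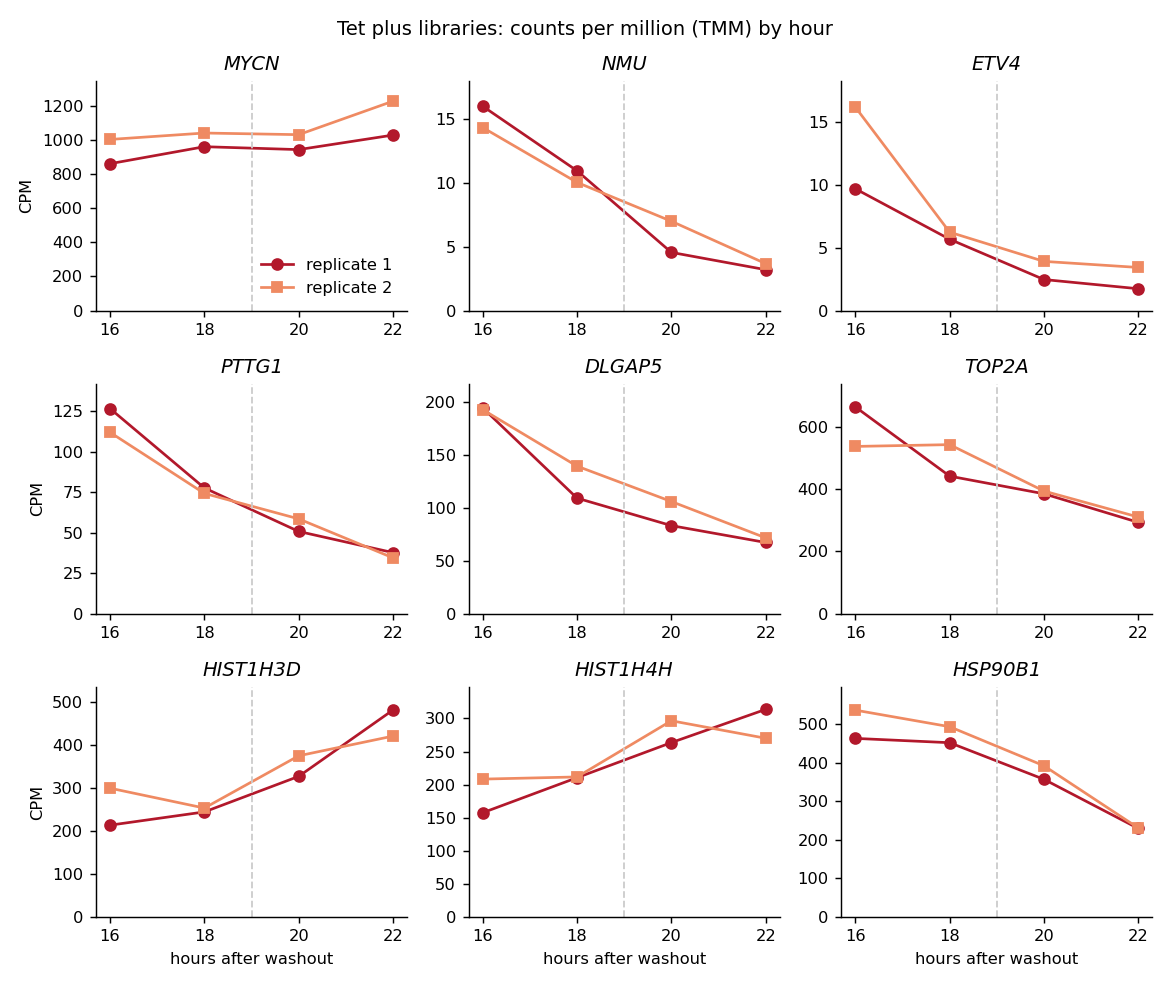
CPM of 9 genes in the Tet plus libraries at 16, 18, 20 and 22 h, with a line per replicate (circles replicate 1, squares replicate 2) and a dashed line between the windows. PTTG1 goes down at each step in both replicates, to 37.8 and 34.5 CPM at 22 h, and HIST1H3D is highest at 22 h, at 481 and 420 CPM.

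Mitotic genes fell together as the Tet plus cells went on. Of 58 listed genes of G2/M, all passed the expression filter, 37 fell and 0 rose (against 9.19% and 7.15% of all genes), with a median log2 change of -0.38 against 0.007 for all genes tested. With the GC and length correction 37 fell, with a median of -0.29. In the window model 1 of the 58 was called (PTTG1), and in 19 of the 58 (32.8%) all 4 late libraries lay below all 4 early ones, against 2.88% of all genes. With 1 library left out, 27 to 40 fell, and the lowest count was without the 18 h library of replicate 2. When the 22 h libraries were left out 13 fell (of 46 genes called lower), and when the 16 h libraries were left out 16 fell (of 351).

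Promoters of 4 genes that fell are shown, 3 from the mitotic list and TOP2A from the G2 list, because members of these lists moved together and late cell-cycle promoters are known for the CCAAT box (letters CCAAT) and the CHR element (letters TTTGAA or TTCGAA). Each is the 250 bases before the RefSeq transcription start on build GRCh38.p14, in the direction of the gene. Capitals mark either motif on either strand, so ATTGG is a CCAAT box and TTCAAA a CHR on the other strand. DLGAP5 (chr14:55191586-55191835, minus strand), KIF4A (chrX:70289854-70290103, plus strand), TOP2A (chr17:40417897-40418146, minus strand) and CENPE (chr4:103198344-103198593, minus strand) follow in that order.
DLGAP5: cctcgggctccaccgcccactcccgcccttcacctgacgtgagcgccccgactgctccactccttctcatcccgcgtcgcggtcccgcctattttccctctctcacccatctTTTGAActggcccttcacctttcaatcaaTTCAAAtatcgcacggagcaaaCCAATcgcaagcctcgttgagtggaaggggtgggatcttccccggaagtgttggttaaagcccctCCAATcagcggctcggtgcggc
KIF4A: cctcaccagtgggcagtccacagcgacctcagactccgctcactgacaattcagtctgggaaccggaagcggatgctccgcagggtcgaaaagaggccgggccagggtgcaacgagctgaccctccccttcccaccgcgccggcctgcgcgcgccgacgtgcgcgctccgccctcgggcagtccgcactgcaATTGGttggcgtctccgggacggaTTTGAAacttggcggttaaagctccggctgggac
TOP2A: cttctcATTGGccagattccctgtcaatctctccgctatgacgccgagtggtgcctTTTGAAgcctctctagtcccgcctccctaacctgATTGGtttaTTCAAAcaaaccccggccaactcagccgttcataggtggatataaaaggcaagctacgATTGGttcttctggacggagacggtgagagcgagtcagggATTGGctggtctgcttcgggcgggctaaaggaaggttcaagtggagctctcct
CENPE: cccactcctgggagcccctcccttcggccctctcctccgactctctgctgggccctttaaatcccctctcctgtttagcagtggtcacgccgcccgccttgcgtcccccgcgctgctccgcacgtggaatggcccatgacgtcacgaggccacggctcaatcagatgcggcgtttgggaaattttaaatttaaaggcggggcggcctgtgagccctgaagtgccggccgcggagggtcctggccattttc
DLGAP5 held 2 CCAAT boxes and 2 CHR letters, KIF4A 1 of each, TOP2A 4 and 2, and CENPE neither. Of the 58 mitotic genes, 42 had a single start in the RefSeq table. CCAAT occurred in 33 of those promoters (78.6%) and CHR letters in 22 (52.4%), and both in 20 (47.6%). Over all 7334 tested genes with such a start, the shares were 36.4% for CCAAT, 9.0% for CHR letters and 4.06% for both. G2 genes (29 with a single start) held CCAAT in 58.6%, CHR letters in 55.2% and both in 44.8%. G1/S genes (38) held CCAAT in 55.3% and CHR letters in 7.89%. Histone genes, which rose, held CCAAT in 75.0%, CHR letters in 42.9% and both in 25.0% of 28 promoters. A match is a string of letters, not a measured site, and the motifs do not overlap each other in the sequences shown.

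DLGAP5, whose protein bundles spindle microtubules, was at 195, 109, 83.3 and 67.3 CPM in replicate 1 and at 193, 140, 106 and 71.7 CPM in replicate 2. The late libraries lay below all early ones (82.1 ± 17.3 CPM late and 159.1 ± 41.9 CPM early; SD, n = 4 each), with a log2 change of -0.94 (SE 0.0788, adjusted p = 2.58e-06), which missed the threshold in the window model (adjusted p = 0.0516). The kinetochore kinesin CENPE fell by 0.83 on the log2 scale (SE 0.102, adjusted p = 6.68e-05) and the chromokinesin KIF4A fell by 0.82 (SE 0.0895, adjusted p = 2.04e-05).

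Regulators of mitosis moved less evenly, and the following were picked after their values were seen. CCNB1, cyclin B1, was at 221, 121, 111 and 122 CPM in replicate 1 and at 213, 169, 154 and 114 CPM in replicate 2, and fell by 0.50 on the log2 scale (adjusted p = 0.00166). Its late and early values overlapped, since the 18 h value of replicate 1 (121) was below 2 late values. CDC20, an activator of the anaphase-promoting complex, fell by 0.62 (adjusted p = 0.000179) and PLK1, a mitotic kinase, fell by 0.60 (adjusted p = 0.000546). CDK1, the kinase partner of cyclin B, had a log2 change of -0.19 (adjusted p = 0.0895) and AURKA, a spindle pole kinase, -0.12 (adjusted p = 0.282), neither past the threshold. FOXM1, a transcription factor of G2/M genes, fell by 0.49 (adjusted p = 0.0076).

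Of 43 listed G2 genes, 28 fell and 1 rose, with a median of -0.28. The 1 that rose, named after its value was seen, was CDCA5, sororin, which holds sister chromatids together: 27.9, 25.2, 29.3 and 33.2 CPM in replicate 1 and 32.4, 28.8, 35.2 and 40.8 CPM in replicate 2 (log2 0.27, adjusted p = 0.0233). Its late values overlapped with the early ones. TOP2A, topoisomerase II alpha, which untangles sister chromatids, was at 665, 442, 385 and 294 CPM in replicate 1 and at 538, 543, 394 and 311 CPM in replicate 2. Its windows did not overlap (346 ± 51.2 CPM late and 547 ± 91.2 CPM early; SD, n = 4 each; log2 -0.67, SE 0.0904, adjusted p = 0.000164). SMC4, a core condensin subunit, was at 323, 218, 216 and 138 CPM in replicate 1 and at 312, 242, 177 and 141 CPM in replicate 2 (log2 -0.71, adjusted p = 3.19e-05). All 4 of its late values lay below its early values. HMMR, a spindle-associated hyaluronan receptor, was at 80.4, 54.9, 50.7 and 42.7 CPM in replicate 1 and at 90.0, 70.9, 57.8 and 38.4 CPM in replicate 2 (log2 -0.64, adjusted p = 0.000121), and its windows overlapped. With the GC and length correction 17 fell and 1 rose. Without the 22 h libraries 5 fell, without the 16 h libraries 5 fell, and with 1 library left out 13 to 25 fell, the 13 being without the 18 h library of replicate 2. In 12 of the 43 (27.9%) the late libraries all lay below the early ones.

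Calls between neighbouring hours were uneven, while list medians were less so. From 16 to 18 h the hourly model called 160 genes higher and 112 lower (0.829%), and 17 of the genes called lower were mitotic genes (median log2 of the list -0.32). From 18 to 20 h edgeR called 0 genes, with 474 at an unadjusted p under 0.05. The list medians still moved between those hours, by 0.39 for histones (29 of 37 at an unadjusted p under 0.05) and by -0.15 for mitotic genes. From 20 to 22 h it called 619 higher (4.58%) and 904 lower (6.69%), with 8 mitotic genes lower (median -0.16) and 6 histone genes higher (median 0.28). From 16 to 22 h it called 1844 genes higher (13.7%) and 2033 lower (15.1%), including 44 of 58 mitotic genes lower (median -0.60) and 32 of 43 G2 genes lower with 1 higher. Averaged over the mitotic list and measured from the arm's own mean over these hours, replicate 1 was at 0.42, -0.08, -0.19 and -0.25 (log2) and replicate 2 at 0.30, 0.10, -0.07 and -0.23. The histone list (41 genes in this average) was at -0.29, -0.29, -0.08 and 0.51 in replicate 1 and at 0.11, -0.27, 0.13 and 0.18 in replicate 2, so the replicates differed most at 16 and 22 h.

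**Figure D3:**
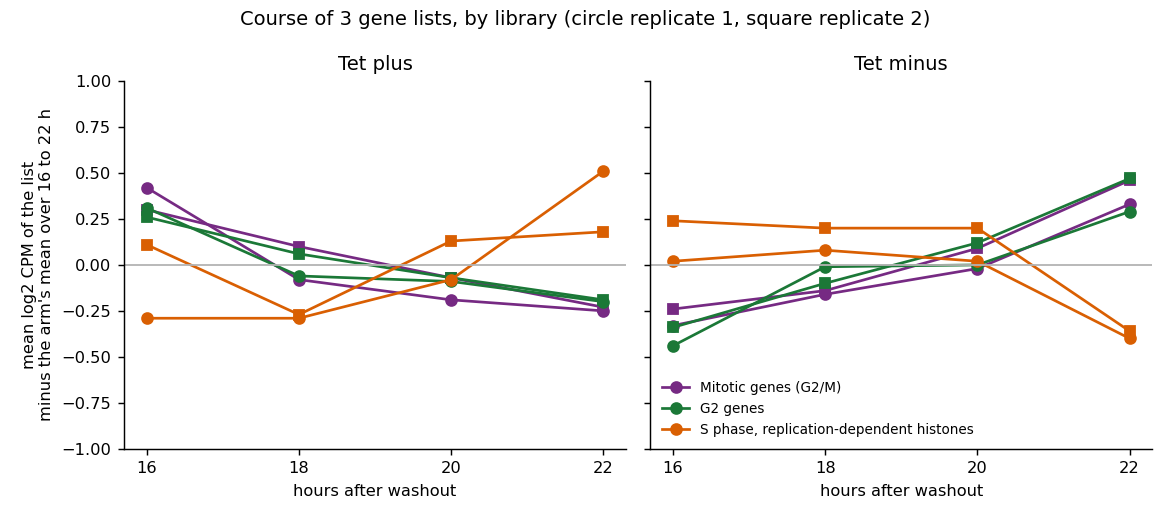
Mean log2 CPM of the mitotic, G2 and histone lists minus the arm's mean over 16 to 22 h, by hour, with a line per list and replicate (Tet plus in the left panel, Tet minus in the right). In Tet plus cells the mitotic list goes down at each hour in both replicates, and in Tet minus cells it goes up.

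Replication-dependent histone genes, made in S phase, rose. Of 58 listed, 37 passed the expression filter, and a gene can pass it through its high libraries alone, so counts describe those 37. Of these, 29 rose and 0 fell, with a median of 0.46. In 9 of the 37 (24.3%) all late libraries lay above all early ones, against 2.52% of all genes. The window model called 0 of the 37, which is to be read against 3 calls over all genes. With the GC and length correction 24 rose (median 0.34), and with ERCC spike-in scaling in the window model the median was 0.22. Without the 22 h libraries 5 of 36 rose, without the 16 h libraries 30 rose, and with 1 library left out 19 to 31 rose, the 19 being without the 18 h or the 20 h library of replicate 2. The reads of histone genes may be split between near-identical copies, so single members are uncertain. HIST1H3D, which encodes histone H3, was at 213, 244, 327 and 481 CPM in replicate 1 and at 299, 253, 374 and 420 CPM in replicate 2. Its late values all lay above its early ones (400.6 ± 65.9 CPM late and 252.3 ± 35.6 CPM early; SD, n = 4 each; log2 0.66, SE 0.0929, adjusted p = 0.000196). HIST1H4H, which encodes histone H4, was at 157, 210, 264 and 314 CPM in replicate 1 and at 208, 212, 297 and 270 CPM in replicate 2 (log2 0.54, SE 0.0881, adjusted p = 0.000638). HIST1H2AB, which encodes histone H2A, rose by 0.69 (adjusted p = 0.00126, and 0.00713 with the GC and length correction). Ribosomal RNA was depleted, not selected by poly(A), so histone RNAs without a poly(A) tail are in these counts.

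G1/S genes did not move as 1 group. Of 65 tested, 2 rose and 8 fell (median -0.03), against 7.15% and 9.19% of all genes. With the GC and length correction 5 rose and 8 fell, and without the 22 h libraries 0 did either. The risers were CCNE1, cyclin E1, and E2F2, an E2F transcription factor of the G1/S switch, both also picked after values were seen. CCNE1 was at 13.3, 15, 16.2 and 20.2 CPM in replicate 1 and at 17.9, 17.7, 22.5 and 22.1 CPM in replicate 2 (log2 0.34, adjusted p = 0.0227). E2F2 was at 49.8, 53.1, 53.2 and 73.3 CPM in replicate 1 and at 38.4, 45.4, 52.8 and 62.5 CPM in replicate 2 (log2 0.37, adjusted p = 0.00353). Both had late values that overlapped with early ones of the other replicate. Those that fell include enzymes of DNA precursor synthesis: TYMS, thymidylate synthase, was at 89.0, 57.4, 61.1 and 46.0 CPM in replicate 1 and at 93.2, 68.3, 56.7 and 43.6 CPM in replicate 2 (log2 -0.56, adjusted p = 0.000179), with windows that overlapped. RRM1, a ribonucleotide reductase subunit, fell by 0.36 on the log2 scale (adjusted p = 0.00357). Of 36 nucleotide synthesis genes tested, 16 fell and 0 rose (median -0.17), and 12 fell with the GC and length correction. Without the 22 h libraries 0 fell (median -0.10), and without the 16 h libraries 2 fell (median -0.096). With 1 library left out, 5 to 16 fell, and 5 was without the 18 h library of replicate 2.

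Growth genes that MYC proteins are known to drive fell in part. Of 64 ribosome biogenesis genes tested, 23 fell and 0 rose (median -0.17), and 23 fell with the GC and length correction. With 1 library left out 7 to 24 fell, the lowest count again without the 18 h library of replicate 2. Without the 22 h libraries 0 fell (median -0.14), where 46 of all genes were called lower. Without the 16 h libraries 3 fell (median -0.055). By step the list median was -0.22 from 16 to 18 h, -0.025 from 18 to 20 h and -0.10 from 20 to 22 h. NOP58, a core protein of box C/D small nucleolar ribonucleoproteins, was at 148, 135, 125 and 99.4 CPM in replicate 1 and at 188, 160, 135 and 106 CPM in replicate 2 (log2 -0.44, adjusted p = 0.000712). PNO1, which helps process the small subunit, fell by 0.46. Of 42 translation factors and tRNA synthetases, 10 fell, and of 41 mitochondrial ribosomal proteins, 7 fell, with 0 that rose in either list, against 9.19% of all genes that fell. After the GC and length correction 6 of the translation genes fell and 1 rose, and 3 of the mitochondrial ribosomal proteins fell. Without the 22 h libraries 0 were called in either list. Step medians from 16 h on were -0.12, 0.02 and -0.14 for the translation genes and -0.22, 0.04 and -0.04 for the mitochondrial ribosomal proteins. Of 60 cytosolic ribosomal protein genes none was called in either direction by edgeR, with a smallest adjusted p of 0.11 (RPS19, log2 0.21).

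Chaperones, which fold new proteins, fell in part. Of 25 tested, 15 fell and 0 rose (median -0.28), and 13 fell with the GC and length correction. HSP90B1, the HSP90 of the endoplasmic reticulum, was at 463, 451, 356 and 229 CPM in replicate 1 and at 536, 493, 392 and 230 CPM in replicate 2. All late values lay below all early ones (301.9 ± 84.6 CPM late and 485.7 ± 37.8 CPM early; SD, n = 4 each; log2 -0.73, SE 0.0762, adjusted p = 1.87e-05). HSPH1, a cytosolic HSP110, fell by 0.58 (adjusted p = 0.000149), and HSPD1, the mitochondrial chaperonin, fell by 0.46. Its partner HSPE1, picked after its values were seen, fell by 0.67. HSPA5, the main HSP70 of the endoplasmic reticulum, had a log2 change of 0.05 (adjusted p = 0.775, picked after its values were seen). Of the 25, 0 fell without the 22 h libraries (median -0.12), and 4 fell without the 16 h libraries (median -0.20). With 1 library left out 6 to 17 fell, and 6 was without the 18 h library of replicate 2. LDHA, the lactate dehydrogenase subunit of glycolysis and a known MYC target, was at 407, 292, 309 and 194 CPM in replicate 1 and at 522, 314, 290 and 198 CPM in replicate 2 (log2 -0.63, adjusted p = 0.000136). Of 19 glycolysis genes tested 3 fell and 0 rose, against 9.19% of all genes that fell, and 4 fell with the GC and length correction.

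Neuronal genes rose in part, while noradrenergic genes moved in both directions. Of 55 neuronal differentiation genes tested, 9 rose and 1 fell (median 0.14), against 7.15% and 9.19% of all genes. With the GC and length correction 7 rose and 1 fell, against 5.03% and 6.31%. In 0 of the 55 did all late libraries lie above all early ones, against 2.52% of all genes. From 16 to 22 h 16 rose and 2 fell (median 0.22), against 13.7% and 15.1%. With ERCC spike-in scaling in the window model the list median was -0.03, where that of all genes was -0.18. None of these genes was called without the 22 h libraries, where 0.304% of all genes were called higher and 0.341% lower. SYP, synaptophysin of synaptic vesicles, was at 147, 130, 146 and 175 CPM in replicate 1 and at 61.6, 64.9, 81.8 and 89.2 CPM in replicate 2 (log2 0.32, adjusted p = 0.00999). Replicate 2 was lower than replicate 1 at every hour, and the windows overlapped. Of 33 noradrenergic genes tested, 3 rose and 3 fell, and 2 rose and 4 fell with the GC and length correction. SLC6A2, the noradrenaline transporter, was at 18.1, 23.7, 24.5 and 32.3 CPM in replicate 1 and at 15.1, 18.8, 21.8 and 30.4 CPM in replicate 2 (log2 0.52, adjusted p = 0.000787). Its windows overlapped. SCG2, a secretory granule protein, fell by 0.43 (adjusted p = 0.00085), and RET, a receptor tyrosine kinase, fell by 1.00 (adjusted p = 0.00727) from a level that did not pass 5.87 CPM in any library.

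Counts of the remaining lists are to be set against 7.15% higher and 9.19% lower over all genes, and several lay above these shares. Of 29 p53 targets, 3 rose and 4 fell. SESN2, a stress sensor that restrains mTORC1, rose by 0.43 (adjusted p = 0.00118), and CCNG1 fell by 0.28 (adjusted p = 0.0138, but 0.82 with the GC and length correction). Of 36 lysosome and autophagy genes 6 rose and 3 fell, of 26 cholesterol genes 3 rose and 1 fell, of 18 G1 cyclins and CDK inhibitors 1 rose and 2 fell, and of 26 immediate early genes none was called in either direction by edgeR. Of 22 genes of the amino acid response 3 rose and 2 fell. Of 21 mesenchymal and Schwann-like genes tested 3 rose and 3 fell, and of 18 interferon response genes 2 rose and 3 fell.

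**Figure D4:**
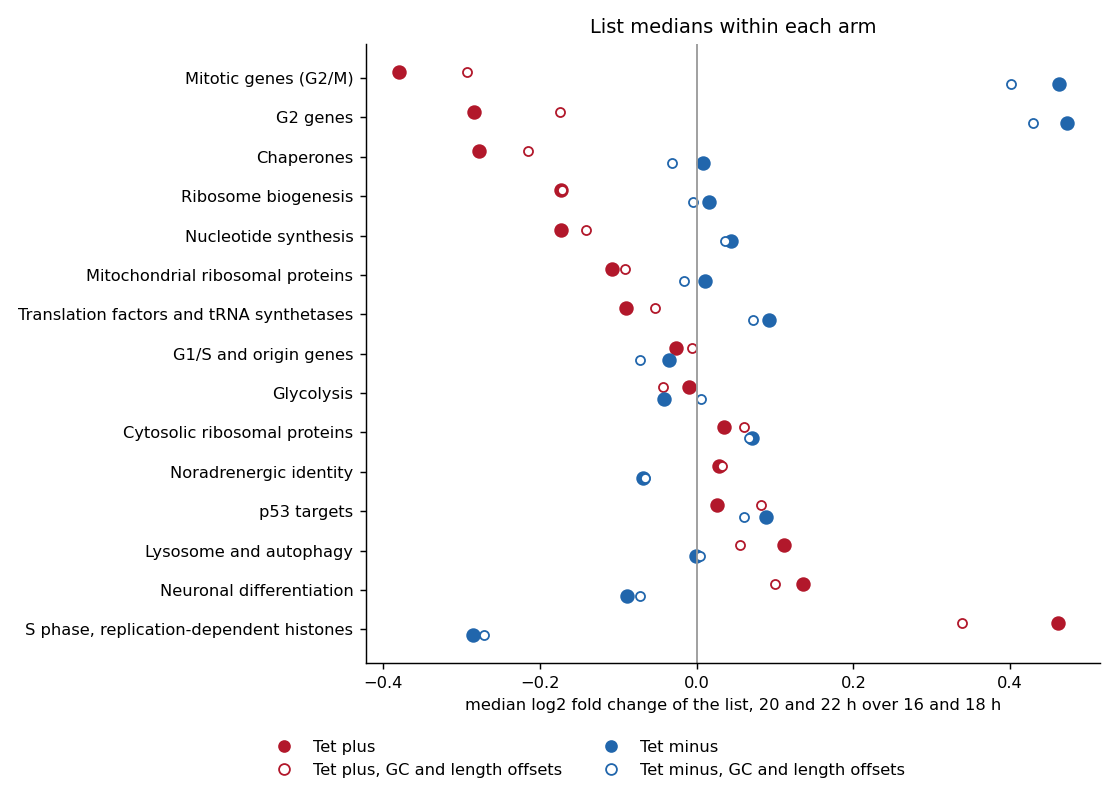
Median log2 change late minus early of 15 gene lists in the hourly model, Tet plus in red and Tet minus in blue, with open circles for the GC and length correction. Histones lie highest in Tet plus cells (0.46) and mitotic genes lowest (-0.38), and both lie on the other side of 0 in Tet minus cells.

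Among single genes picked after their values were seen, APC2, a neuronal relative of the APC tumour suppressor, and LINGO2, a neuronal membrane protein, were higher late. APC2 was at 66.9, 68.7, 94.6 and 119 CPM in replicate 1 and at 40.2, 42.4, 55.8 and 84.1 CPM in replicate 2 (log2 0.69, adjusted p = 2.04e-05, and 0.0555 in the window model). Late values exceeded early ones within each replicate but overlapped between replicates. HMGN2, a nucleosome-binding protein, was at 922, 644, 465 and 387 CPM in replicate 1 and at 855, 606, 517 and 385 CPM in replicate 2 (log2 -0.78, adjusted p = 1.87e-05), with no overlap. ANP32E, a chaperone that removes the histone variant H2A.Z from chromatin, was at 637, 452, 442 and 209 CPM in replicate 1 and at 666, 537, 335 and 201 CPM in replicate 2 (log2 -1.01, adjusted p = 8.82e-06). All its late values lay below its early ones.

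Box H/ACA small nucleolar RNAs, which guide pseudouridylation of ribosomal RNA, were counted apart. The expression filter kept 83 of 106 of them, and 103 of 262 box C/D RNAs. An RNA can pass it through its high libraries alone. Of the 83 tested, 41 rose and 0 fell, against 7.15% and 9.19% of all genes. In Tet minus cells 0 of 79 were called, against 0.779% higher and 0.393% lower of all genes (window model median -0.12). Fits without whole hours or without 1 library were not counted for this class. With the GC and length correction 27 rose and 4 fell, against 5.03% and 6.31%. Box C/D small nucleolar RNAs, which guide methylation, gave 7 higher and 5 lower of 103, and 4 higher and 19 lower with the correction. Before the correction both C/D counts lay below those shares, and after it only the lower count lay above. Small nucleolar and Cajal body RNAs together took 0.935, 1.92, 2.09 and 2.00% of gene counts at 16, 18, 20 and 22 h in replicate 1 and 1.39, 1.93, 1.98 and 2.41% in replicate 2. The 16 h library was the lowest in both replicates.

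In Tet minus cells the same hours ran the other way for the cell-cycle lists. The hourly model called 107 genes higher (0.779%) and 54 lower (0.393%) of 13742. Of the 58 mitotic genes 34 rose and 0 fell (median 0.46), of the 43 G2 genes 26 rose and 0 fell (median 0.47), and of 39 histone genes tested 7 fell and 0 rose (median -0.29). With the GC and length correction, where 1.19% of all genes were higher and 0.633% lower, 39 mitotic genes rose and 1 fell, 28 G2 genes rose and 3 histone genes fell. Leaving out 1 library at a time, 9 to 44 mitotic genes rose, 2 to 34 G2 genes rose and 0 to 17 histone genes fell. The lowest counts were without the 16 h library of replicate 1 (9 mitotic and 2 G2 genes), and 0 histone genes fell without that library or without the 20 h library of replicate 1. Without the 16 h or the 20 h library of replicate 2, 19 and 20 mitotic genes rose, and without the 20 h library of replicate 1, 21 did. Without the 16 h library of replicate 2, 17 G2 genes rose and 1 histone gene fell, and without the 20 h library of replicate 2, 16 and 2. With the 16 h libraries left out, no mitotic gene passed the threshold in Tet minus cells (median 0.40), and edgeR called 0 of all genes there (1072 at an unadjusted p under 0.05). The window model over all 4 hours called 0 genes too (1092 at an unadjusted p under 0.05, and 88 called with DESeq2). Without the 22 h libraries 21 mitotic genes rose and 1 fell (0.330% of all genes were called higher), and the histone median was 0.03 with none called. From 16 to 22 h, 45 mitotic genes rose and 20 histone genes fell in Tet minus cells (8.70% of all genes higher and 7.39% lower). The mitotic list was at -0.33, -0.16, -0.02 and 0.33 (log2, from the arm's mean) in replicate 1 and at -0.24, -0.14, 0.09 and 0.46 in replicate 2. The histone list was at 0.02, 0.08, 0.02 and -0.40 in replicate 1 and at 0.24, 0.20, 0.20 and -0.36 in replicate 2, so the drop stood at 22 h.

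Of the 58 mitotic genes tested in both arms, 37 fell in Tet plus cells and 34 rose in Tet minus cells. These sets shared 22 genes, which is 59.5% of the Tet plus set and 64.7% of the Tet minus set. The 43 G2 genes shared 16 (57.1% of 28 and 61.5% of 26) and the 37 histones 5 (17.2% of 29 and 71.4% of 7). Where many members of a list are called, calls unrelated between the arms also share genes. Whether more genes were shared than that was not tested, so these shares do not show a link between the arms gene by gene. After the GC and length correction mitotic genes shared 24 (64.9% of 37 and 61.5% of 39), G2 genes 9 (52.9% of 17 and 32.1% of 28) and histones 2 (8.33% of 24 and 66.7% of 3).

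The difference between the arms in the late minus early change was tested in 1 model over both arms. In the hourly form it called 456 genes higher in Tet plus (3.30%) and 759 lower (5.50%) of 13801. Of 58 mitotic genes 51 were lower and 0 higher (median log2 -0.83), of 43 G2 genes 37 were lower and 0 higher (median -0.82), and of 37 histone genes 28 were higher and 0 lower (median 0.64). With GC and length correction, where 1.15% of all genes were higher and 2.28% lower, 48 mitotic and 36 G2 genes were lower and 17 histone genes higher. Without the 22 h libraries 28 mitotic and 13 G2 genes were lower (0.358% of all genes) and 0 histone genes higher. Without the 16 h libraries 18 mitotic and 3 G2 genes were lower (0.168%) and 9 histone genes higher (0.109%). With 1 library left out, mitotic genes gave 44 to 53 and histone genes 10 to 31, the lowest histone count being without the Tet plus 20 h library of replicate 2. Of 64 ribosome biogenesis genes 12 were lower and of 36 nucleotide synthesis genes 11 were lower, with 0 higher in either. With GC and length correction these counts were 8 and 7. Of the ribosome biogenesis genes 0 were lower without the 22 h libraries (median -0.15) and 0 without the 16 h libraries (median -0.12). Leaving out 1 library gave 2 to 15 ribosome biogenesis genes lower (2 without the Tet minus 20 h library of replicate 1) and 5 to 14 nucleotide synthesis genes. Both counts were at 7 or less when any 1 of these was left out: in replicate 1 the Tet minus 16 or 20 h library, in replicate 2 the Tet plus 16, 18, 20 or 22 h or the Tet minus 20 h library. The ribosome biogenesis count was 6 without the Tet minus 18 h library of replicate 2, and the nucleotide synthesis count 7 without the Tet minus 16 h library of replicate 2.

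TOP2A was among the genes with opposite courses. In Tet plus cells it had a log2 change of -0.67, and in Tet minus cells, at 365, 501, 525 and 752 CPM in replicate 1 and at 411, 486, 586 and 935 CPM in replicate 2, it rose by 0.64 (adjusted p = 0.00147). The difference was -1.30 (SE 0.126, adjusted p = 1.55e-05). DLGAP5 rose by 0.47 in Tet minus cells (81.8, 103, 103 and 148 CPM in replicate 1, 107, 105, 121 and 190 CPM in replicate 2), and its difference was -1.40 (SE 0.114, adjusted p = 6.49e-06). CCNB1 differed by -1.14 (adjusted p = 4.46e-05) and AURKA by -0.93, although AURKA was not past the threshold in Tet plus cells alone. PTTG1 differed by -0.73 (adjusted p = 0.000929), with no passing change in Tet minus cells (log2 -0.37, adjusted p = 0.0523). E2F2 and CCNE1 went the other way, with differences of 0.81 (adjusted p = 8.53e-05) and 0.77 (adjusted p = 0.00108). The window form of the difference called 2 genes, FAM72D and CENPA (0.0145%), both lower in Tet plus.

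**Figure D5:**
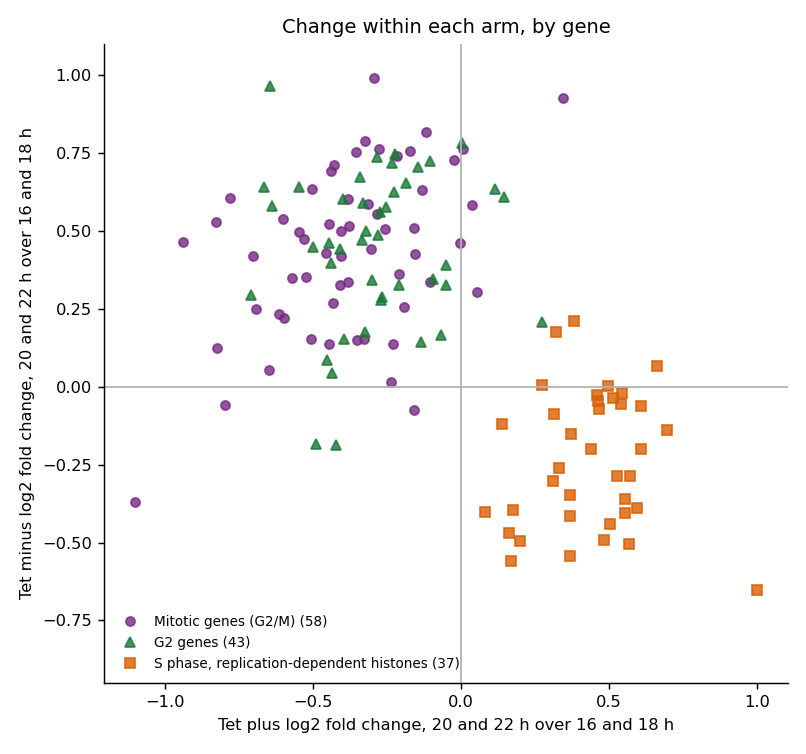
Log2 change late minus early of each mitotic (58), G2 (43) and histone (37) gene in Tet plus cells (horizontal axis) and in Tet minus cells (vertical axis), from the hourly model. Most mitotic genes lie left of 0 and above 0, with medians of -0.38 in Tet plus cells and 0.46 in Tet minus cells.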

How the data were processed

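Per the labels' protocols, total RNA was depleted of ribosomal RNA, given ERCC mix 1 spike-ins and made into directional libraries. The deposited values are whole-number read counts per gene made by the authors, with TopHat2 2.0.5, HTSeq and build hg19 per the submitters' processing notes. The annotation and the strand setting were not stated in the labels or file headers, so a gene and an antisense or overlapping partner (MYCN and MYCNOS) may share counts, and counts of near-identical families (histones, FAM72) may be split.

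Genes were kept by filterByExpr (13507 of 23367 in Tet plus), scaled by TMM over gene counts without the 92 ERCC rows, and tested with edgeR 4.0.16 (glmQLFit, glmQLFTest) in R 4.3.3, with Benjamini-Hochberg adjustment over all tested genes and a threshold of 0.05. Models had a replicate term. Same-numbered libraries of an arm carry the same lane number at these hours, with no flow cell given. Their deviations correlated in every pair of hours (r = 0.484 to 0.694 in Tet plus, 0.298 to 0.731 in Tet minus). The GC and length correction used spline offsets per library and was added after seeing the data, as were the hourly model for Tet minus and for the difference between arms and the fits without 16 or 22 h. GC and length values came from GENCODE transcripts, matched by gene symbol (95.8% of tested genes). The longest coding transcript of a gene was used, or else its longest transcript.

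Members and 27 gene lists were chosen with earlier results of these data known. Named genes were the MYC network, up to 15 highest and 15 lowest calls at mean log2 CPM of at least 3, up to 4 members per list by adjusted p, and up to 5 highest and 5 lowest arm differences. Other names are said to be picked afterwards. Alternatives included DESeq2 1.42.0. The scripts were tested on simulated data. Some genes are not reported here.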

Additional observations from a re-analysis of the deposited data

Results flagged for a closer look

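The late minus early change differed between the arms for CENPA and FAM72D by a test of that difference in the window model. CENPA encodes the centromeric histone H3 variant. In Tet plus cells it was at 13.1, 11.9, 9.72 and 10.5 CPM at 16, 18, 20 and 22 h in replicate 1 and at 12.6, 11.9, 9.77 and 10.4 CPM in replicate 2, and in Tet minus cells at 8.77, 12.1, 16.3 and 22.6 CPM and at 10.7, 11.9, 19.3 and 29.4 CPM. The difference in change, Tet plus minus Tet minus, was -1.30 on the log2 scale (SE 0.21, adjusted p = 0.04997 in the window model). FAM72D has near-identical copies that may share its reads. In Tet plus cells it was at 20.6, 13.5, 14.6 and 13 CPM in replicate 1 and at 18.4, 13.4, 12.1 and 10.5 CPM in replicate 2, and in Tet minus cells at 17.3, 18.7, 33.5 and 50.0 CPM and at 18.6, 25.0, 37.4 and 50.2 CPM. Its difference was -1.51 (SE 0.236, adjusted p = 0.04997). FAM72D lost the call in 10 and CENPA in 12 of 16 fits that left out 1 library. Groups hold 2 libraries, so no group was tested for an outlying library.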

How the results depend on the processing

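In the window model the Tet plus count of 3 genes was 3 with DESeq2 size factors, 0 with no replicate block, 0 with ERCC scaling, 52 without small nucleolar RNAs, 245 with DESeq2, 817 with no expression filter, 66 with GC and length offsets, 0 without 22 h and 0 without 16 h. A mean per hour gave 2207, with offsets 1531, without 22 h 87 and without 16 h 507. A linear term in hours gave 2340, 22 h against 16 h 3877, and all 44 libraries 214. With 1 library left out it gave 0 to 740 (740 without the 20 h library of replicate 1). MYCN in Tet plus cells had the other sign with ERCC scaling (-0.0467), under which the median of all genes was -0.18. For Tet minus the count of 0 became 161 with a mean per hour, 3 with ERCC scaling, 88 with DESeq2, 2 with no filter, 105 with offsets, 250 with offsets and a mean per hour, 62 with a mean per hour without 22 h, 1 in the window model without 16 h, and 0 to 2 with 1 library left out. For the arm difference the count of 2 became 0 with no replicate block, 1215 with a mean per hour, 0 with ERCC scaling, 28 without small nucleolar RNAs, 132 with DESeq2, 484 with no filter, 100 with offsets, 474 with offsets and a mean per hour, 53 and 38 in that model without 22 h and without 16 h, and 0 to 102 with 1 library left out. Where edgeR's Tet plus count was 0, 1665 genes (no replicate block), 38 (ERCC scaling), 815 (no 22 h) and 774 (no 16 h) had an unadjusted p under 0.05. With a mean per hour and 1 library left out, the counts were 811 to 2480 (Tet plus), 15 to 721 (Tet minus) and 321 to 2279 (arm difference). The causes were not tested.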
